A study of Mus musculus with 12 samples.

Results

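The 10 genes described here belong to propionyl-CoA and branched-chain breakdown and were followed through RNA-seq of scrapings of mouse proximal ileal epithelium. They were chosen for their place in these routes and found by symbol, with symbols paired to the files' Ensembl identifiers through the GENCODE M21 annotation. All 10 were among the 46078 genes in the files, and 9 of them were among the 15823 genes with enough counts to test, Adhfe1 being the exception. The libraries came from male C57BL/6 mice gavaged every 4 days with sesame oil, the vehicle, or with 3, 10 or 30 µg/kg TCDD, a chlorinated dioxin and ligand of the aryl hydrocarbon receptor (AhR). The labels give 7 administrations, an age of 28 days at the start and of 56 days at the end, and 3 libraries for each of the 4 groups. The labels name no altered allele, and vehicle animals received the same oil and gavage as treated ones.

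Propionyl-CoA arises from the breakdown of isoleucine and valine and of odd-chain fatty acids in mitochondria, and from shortening of the cholesterol side chain in peroxisomes. The preferred route, in mitochondria, carboxylates it. Propionyl-CoA carboxylase, built from a biotin-carrying alpha subunit (Pcca) and a beta subunit (Pccb), makes methylmalonyl-CoA. Mcee turns this into its epimer, and the cobalamin-dependent mutase Mut yields succinyl-CoA. The alternate route resembles β-oxidation and needs no cobalamin. In it Acads, a short-chain acyl-CoA dehydrogenase, makes acrylyl-CoA, Echs1 hydrates it, Hibch removes the CoA, Adhfe1 oxidizes the resulting hydroxy acid, and Aldh6a1 oxidizes the semialdehyde. Echs1, Hibch and Aldh6a1 also carry the breakdown of valine. Auh hydrates methylglutaconyl-CoA from leucine, and Clybl splits citramalyl-CoA, a product of itaconate.

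Between 11695887 and 22180274 counts were assigned to genes in each library. The known AhR target Cyp1a1 lay at 19.0 to 27.5 CPM (counts scaled to library size) in vehicle, at 873 to 1333 with 10 µg/kg and at 2608 to 3251 with 30 µg/kg. At 3 µg/kg its libraries held 141, 68.8 and 22.2 CPM and it was not called (adjusted p = 0.208, edgeR quasi-likelihood test). Of the 6 AhR targets examined, Cyp1a1, Cyp1b1 and Ahrr were called higher at 10 and 30 µg/kg and Tiparp at 30 µg/kg, Nqo1 was called nowhere, and Cyp1a2 was called lower at 3 µg/kg (adjusted p = 0.0082), where its 3 libraries had 0 counts against 15 to 50 in vehicle. Enterocyte markers were abundant in every group, with summed levels of 23490 to 34840 CPM over 8 genes. In 3 of the 4 groups, all labelled proximal ileum, the ileal markers Fabp6 and Slc10a2 were low. Their sum was 0.508 to 2.73 CPM in vehicle, 28.4 to 54.8 with 3 µg/kg, 1.29 to 2.30 with 10 µg/kg and 0.868 to 1.16 with 30 µg/kg, so the 3 µg/kg libraries stood apart. Counts of calls are therefore also given from a fit without that group, and a difference between vehicle and 3 µg/kg cannot be told apart from this difference in ileal markers. At 30 µg/kg all 5 Paneth cell markers were called higher, with a summed level of 2071 to 2789 CPM against 658 to 999 in vehicle, and 2 of 5 goblet, 3 of 6 enteroendocrine and 2 of 5 T cell markers were also called higher. Of the 5 pancreatic acinar genes 3 were tested and 2, Pnlip and Ctrb1, fell at both the lowest and the highest dose. Ctrb1 had 34 to 58 counts in vehicle, 0 to 2 with 3 µg/kg and 4 to 11 with 30 µg/kg, and the list summed to 6.99 to 8.98 CPM in vehicle and 2.11 to 3.23 CPM with 3 µg/kg. None of the smooth muscle, fibroblast or B cell markers was called at any dose, though the summed smooth muscle level was 49.4 to 173 CPM in vehicle and 19.3 to 30.5 with 10 µg/kg. In such bulk samples, fewer cells of a type and less RNA per cell cannot be told apart. The part of these markers in the values below was not tested.

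The sequence before the start site is shown for 5 of the genes, because these data compare doses of an AhR ligand and the receptor's core recognition motif is the 5-base word GCGTG, read here on both strands. Windows came from RefSeq (GRCm38.p6) and cover 250 bases before to 50 bases after a start site. Of the 10 genes, 9 had a window and Adhfe1 did not. The 250 bases before the start are printed 5′ to 3′ on the strand of the gene, in lower case, with each match to GCGTG or its reverse complement CACGC in capitals. Pcca and Mcee had the largest positive changes of the carboxylation route, Pccb is the partner subunit of Pcca, and Acads lay lower at 2 doses. Over the whole window, including the 50 bases after the start that are not printed, Clybl shares with Acads and Mcee the highest count of matches.
Pcca (chr14:122534078-122534327, plus strand): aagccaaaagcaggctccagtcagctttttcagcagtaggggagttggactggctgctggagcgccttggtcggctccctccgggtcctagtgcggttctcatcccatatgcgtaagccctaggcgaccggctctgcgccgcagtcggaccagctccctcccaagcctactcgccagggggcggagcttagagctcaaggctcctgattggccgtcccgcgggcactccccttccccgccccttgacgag
Mcee (chr7:64392372-64392621, plus strand): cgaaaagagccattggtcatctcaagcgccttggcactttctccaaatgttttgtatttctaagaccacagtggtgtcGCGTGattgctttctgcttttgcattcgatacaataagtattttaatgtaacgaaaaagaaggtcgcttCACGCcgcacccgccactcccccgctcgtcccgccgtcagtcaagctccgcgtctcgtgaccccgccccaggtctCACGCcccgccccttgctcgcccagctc
Pccb (chr9:101034885-101035134, minus strand): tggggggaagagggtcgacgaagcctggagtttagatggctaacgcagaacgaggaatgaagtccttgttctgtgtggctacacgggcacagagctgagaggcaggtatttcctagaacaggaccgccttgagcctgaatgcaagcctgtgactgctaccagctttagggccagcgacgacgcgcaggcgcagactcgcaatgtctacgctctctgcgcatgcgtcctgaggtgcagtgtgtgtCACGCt
Acads (chr5:115119347-115119596, minus strand): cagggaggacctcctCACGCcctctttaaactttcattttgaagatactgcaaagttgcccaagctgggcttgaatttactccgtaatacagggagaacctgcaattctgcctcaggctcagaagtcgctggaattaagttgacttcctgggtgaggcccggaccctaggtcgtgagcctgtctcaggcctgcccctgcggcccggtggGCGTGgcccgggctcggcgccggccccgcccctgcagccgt
Clybl (chr14:122181444-122181693, plus strand): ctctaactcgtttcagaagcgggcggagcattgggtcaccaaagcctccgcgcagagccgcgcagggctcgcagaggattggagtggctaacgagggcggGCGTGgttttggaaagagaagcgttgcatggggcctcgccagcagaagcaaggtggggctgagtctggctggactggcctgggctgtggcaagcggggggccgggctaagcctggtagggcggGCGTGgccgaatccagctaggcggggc

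Counting the 50 bases past the start site as well, Acads, Mcee and Clybl held 3 matches each, Echs1 held 2, and Pccb, Auh and Aldh6a1 held 1 each. Neither of the 2 windows of Pcca nor the window of Hibch held the word. Of the 11 windows of these genes 7 held a match, beside 10639 of 32851 RefSeq windows (32.4%). Matches are a description of these letters and say nothing of binding. Pcca, with none, and Mcee, with 3, both had positive log2 changes at each dose, and Acads, with 3, had negative ones. Clybl, with 3, and Hibch, with none, had changes of both signs over the doses. Of the genes with 1 or 2 matches, Aldh6a1 had positive changes at each dose, and Pccb, Echs1 and Auh had both signs. No change of these genes was called, so the signs are not established. Whether matches go with the direction of change was not tested.

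In vehicle libraries the genes spanned a wide range of levels. Levels between genes are compared per kilobase (kb) of the main annotated transcript. Echs1 was highest at 31.5 ± 4.98 CPM per kb (SD, n = 3), followed by Pccb at 26.5 ± 2.85, and their ranges over the 3 libraries overlapped. Acads at 16.0 ± 0.255 and Auh at 15.4 ± 3.02 came next and also overlapped. Aldh6a1 (5.40 ± 0.526), Mcee (5.03 ± 1.27) and Hibch (4.64 ± 0.113) came after these, with overlapping neighbours. Clybl followed at 3.74 ± 0.161 and Pcca at 3.09 ± 0.360, without overlap between them. Adhfe1 was last at 0.166 ± 0.105 CPM per kb. The 2 subunits of the carboxylase were thus far apart, Pccb standing at 26.5 and Pcca at 3.09 CPM per kb. The order depends on the length used: per kb of all annotated exons Pccb led at 22.2, followed by Acads at 13.2 and Echs1 at 5.91, Auh stood at 2.12, Pcca at 1.54 CPM per kb, and Adhfe1 was still last at 0.142.

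**Figure D1:**
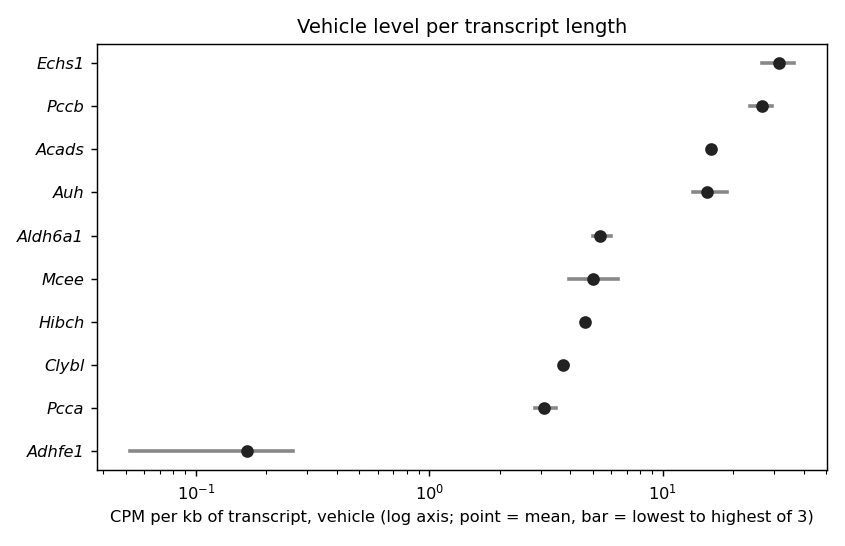
Vehicle level of the 10 genes in CPM per kb of main transcript on a log axis; points are means of 3 libraries and bars run from the lowest to the highest. Echs1 and Pccb lead at 31.5 and 26.5, and Adhfe1 is lowest at 0.166.

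No gene of the carboxylation route passed the test at any dose. Pcca (ENSMUSG00000041650, GRCm38 chr14:122534324-122891100, plus strand) encodes the alpha subunit. It held 7.33, 9.07 and 7.62 CPM in vehicle, 9.43, 12.4 and 10.9 with 3 µg/kg, 11.7, 10.2 and 11.6 with 10 µg/kg, and 10.5, 9.69 and 9.86 with 30 µg/kg, from 109 to 213 counts per library. All 9 TCDD libraries lay above all 3 vehicle libraries, a position also taken by 1.59% of all genes tested, while 1.23% lay entirely below. The log2 change against vehicle was 0.45, 0.48 and 0.32 (SE 0.14 each) at 3, 10 and 30 µg/kg. None of these passed, with adjusted p of 0.269, 0.140 and 0.197 (edgeR quasi-likelihood test, Benjamini-Hochberg adjustment). Without the 3 µg/kg group these values were 0.49 at 10 µg/kg and 0.33 for 30 µg/kg, with adjusted p of 0.0944 and 0.151. Levels at 10 against 3 µg/kg differed by 0.030 on the log2 scale (95% interval -0.27 to 0.33). An exon of Pcca overlaps 241 bases of Ggact on the opposite strand, a gene at 27.9 to 40.2 CPM, and since the strand setting of the counting is not given in the sources used here, reads of the 2 genes cannot be told apart there.

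Pccb (ENSMUSG00000032527, chr9:100982032-101034898, minus strand) encodes the beta subunit. It held 54.7, 62.3 and 67.8 CPM in vehicle, 79.5, 59.7 and 59.2 with 3 µg/kg, 66.0, 54.6 and 60.9 with 10 µg/kg, and 51.6, 53.0 and 51.0 with 30 µg/kg. The 3 libraries at 30 µg/kg lay below all vehicle libraries by a narrow margin, the highest of them at 53.0 and the lowest vehicle library at 54.7. At the highest dose it differed from vehicle by -0.25 on the log2 scale (SE 0.12, 95% interval -0.52 to 0.022, adjusted p = 0.270). Without the 3 µg/kg group this value was -0.24 (adjusted p = 0.189). Mcee (ENSMUSG00000033429, chr7:64392607-64412125, plus strand), the epimerase, held 3.27, 5.32 and 3.89 CPM in vehicle and between 4.75 and 6.11 in the 9 TCDD libraries. The second vehicle library lay within the TCDD range and the other two lay below it. Its log2 change was 0.38 (SE 0.19), 0.41 (SE 0.19) and 0.26 (SE 0.19) at 3, 10 and 30 µg/kg, with adjusted p of 0.469, 0.305 and 0.445. With each library left out in turn, its value at 10 µg/kg ran from 0.28 to 0.64, without a call. The highest value came without the second vehicle library (adjusted p = 0.206).

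**Figure D2:**
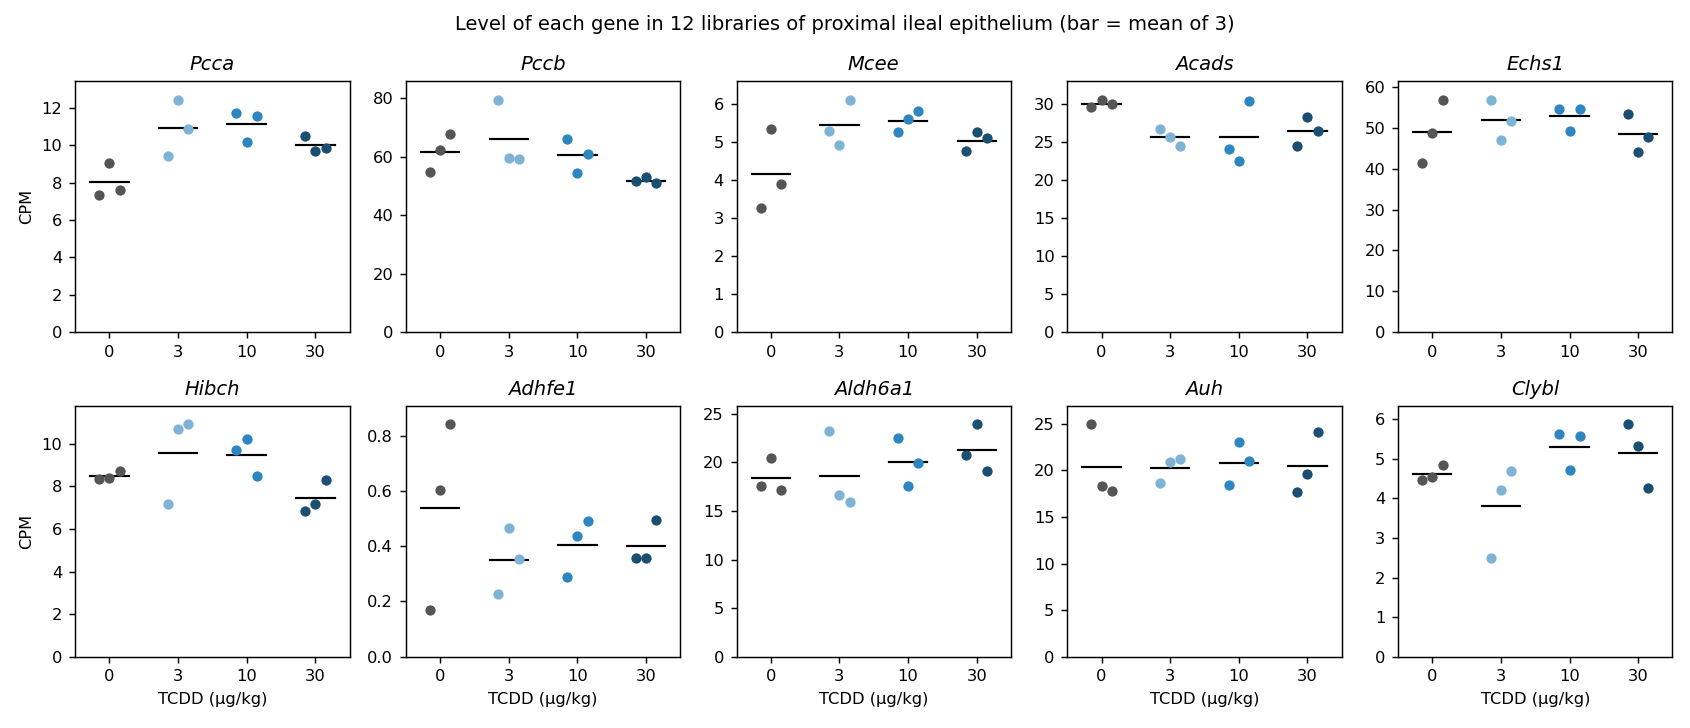
CPM of the 10 genes by TCDD dose, 1 point per library and a bar at the mean of 3, each panel with its own linear axis from 0. Pcca is above vehicle in all 9 TCDD libraries, and most other panels overlap.

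Within a library the ratio of Pcca to Pccb counts does not depend on library scaling. This ratio was chosen after the values were seen and carries no test. Vehicle libraries held 13.4, 14.6 and 11.2 Pcca counts per 100 Pccb counts. The 3 µg/kg libraries held 11.9, 20.8 and 18.3, the 10 µg/kg libraries 17.8, 18.6 and 19.0, and the 30 µg/kg libraries 20.3, 18.3 and 19.3. All 6 libraries at the higher doses lay above vehicle, while 1 of the 3 libraries at 3 µg/kg lay within the vehicle range. At 30 µg/kg this follows from Pcca lying above all vehicle libraries and Pccb below them. How many pairs of genes separate in this way was not counted. The means were 13.1 ± 1.70 in vehicle and 19.3 ± 0.995 at 30 µg/kg (SD, n = 3).

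**Figure D3:**
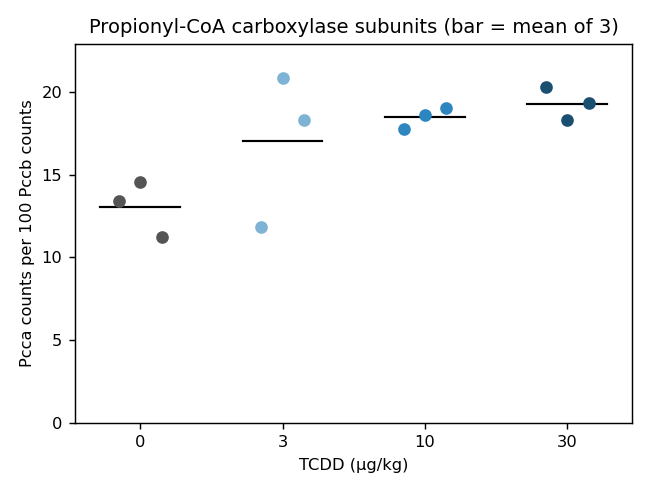
Pcca counts per 100 Pccb counts in each library by TCDD dose, with a bar at the mean of 3. Vehicle libraries run from 11.2 to 14.6 and the 30 µg/kg libraries from 18.3 to 20.3.

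The genes of the β-oxidation-like route did not pass the test either. Acads (ENSMUSG00000029545, chr5:115110299-115119346, minus strand), which starts the route, held 29.6, 30.5 and 30.0 CPM in vehicle. Relative to its mean this was the narrowest spread of the 10 genes, with an SD of 1.59% of the mean. These values come from 3 libraries with 524, 659 and 570 counts, and so narrow a range need not be a trait of the gene. Acads held 26.6, 25.6 and 24.5 CPM with 3 µg/kg, 24.1, 22.4 and 30.4 with 10 µg/kg, and 24.4, 28.2 and 26.5 with 30 µg/kg. Libraries at 3 and at 30 µg/kg lay below all vehicle libraries, and at 10 µg/kg the third library lay within the vehicle range. The log2 changes were -0.23, -0.23 and -0.19 (SE 0.11 each), with adjusted p of 0.456, 0.337 and 0.345. The intervals reached from -0.47 to 0.0084 at 3 µg/kg and from -0.43 to 0.050 at 30 µg/kg, so a fall of 1.5-fold lay outside them.

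Echs1 (ENSMUSG00000025465, chr7:140105710-140116476, minus strand), the hydratase, held 41.4, 48.7 and 56.9 CPM in vehicle and 44.1 to 56.9 CPM over the TCDD libraries. The ranges overlapped at every dose, and its log2 change was 0.082, 0.11 and -0.015 (SE 0.12 each) at 3, 10 and 30 µg/kg. Its exons overlap 142 bases of Paox on the opposite strand, a gene at 2.39 to 6.79 CPM. Hibch (ENSMUSG00000041426, chr1:52844929-52920986, plus strand), the hydrolase, held 8.35, 8.38 and 8.72 CPM in vehicle, 7.17, 10.7 and 10.9 with 3 µg/kg, 9.72, 10.2 and 8.51 with 10 µg/kg, and 6.84, 7.20 and 8.32 with 30 µg/kg. The 30 µg/kg libraries lay below vehicle, the nearest pair being 8.32 and 8.35. Its log2 change was 0.18, 0.16 and -0.19 (SE 0.16 each), with adjusted p of 0.704, 0.662 and 0.556. The step from 10 to 30 µg/kg was -0.35 (95% interval -0.70 to 0.014, adjusted p = 0.258).

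Adhfe1 (ENSMUSG00000025911, chr1:9547948-9580673, plus strand), the transhydrogenase that oxidizes hydroxy acids, was near the limit of detection. It had 3, 13 and 16 counts in vehicle, 3, 8 and 6 with 3 µg/kg, 4, 6 and 8 with 10 µg/kg, and 7, 4 and 9 with 30 µg/kg. These counts did not pass the filter on low values, and a small dose difference was not detectable at this depth. Fitted without a filter, its log2 change was -0.61 (SE 0.61), -0.40 (SE 0.60) and -0.41 (SE 0.60) at the 3 doses. Aldh6a1 (ENSMUSG00000021238, chr12:84430717-84451004, minus strand), the semialdehyde dehydrogenase, held 17.5, 20.4 and 17.1 CPM in vehicle, 23.2, 16.6 and 15.9 with 3 µg/kg, 22.5, 17.6 and 19.9 with 10 µg/kg, and 20.8, 23.9 and 19.1 with 30 µg/kg. The groups overlapped at every dose, and the log2 change was 0.012, 0.12 and 0.21 (SE 0.15 each). Exons of Aldh6a1 overlap 1078 bases of Bbof1 on the opposite strand, which held at most 1.30 CPM.

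Auh and Clybl stood outside both routes and were not called. Auh (ENSMUSG00000021460, chr13:52835119-52929681, minus strand) held 24.9, 18.3 and 17.8 CPM in vehicle, 18.6, 20.9 and 21.3 with 3 µg/kg, 18.4, 23.0 and 21.0 with 10 µg/kg, and 17.6, 19.6 and 24.2 with 30 µg/kg. Its log2 change was -0.0041, 0.033 and 0.011 (SE 0.15 each), and the 30 µg/kg interval ran from -0.32 to 0.34. The SD within each group, 1.41 CPM or more, exceeded every difference between the group means, which ran from 20.3 to 20.8 CPM. Clybl (ENSMUSG00000025545, chr14:122181704-122402234, plus strand) held 4.46, 4.54 and 4.83 CPM in vehicle, 2.49, 4.21 and 4.70 with 3 µg/kg, 5.62, 4.72 and 5.57 with 10 µg/kg, and 5.87, 5.33 and 4.27 with 30 µg/kg. The first 3 µg/kg library, with 33 counts, was the lowest of all 12. The log2 change was -0.27 (SE 0.22), 0.20 (SE 0.22) and 0.16 (SE 0.21), and without that library the value at 3 µg/kg was -0.056.

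Over the 9 genes tested, none was called at 3, 10 or 30 µg/kg by edgeR, with a call set at an adjusted p under 0.05 and a change of at least 1.5-fold. Over all genes tested, 0.228%, 0.613% and 3.97% were called at these doses, so a list of 9 genes would hold few calls at such shares. DESeq2 and limma-voom also called none of the 9 at any dose. At an unadjusted p under 0.05 edgeR gave 1 gene with 3 µg/kg (Pcca), 2 with 10 µg/kg (Pcca and Mcee) and 1 with 30 µg/kg (Pcca), beside 11.4%, 15.9% and 21.6% of all genes. None was called between 10 and 3 µg/kg (0.158% of all genes), between 30 and 10 µg/kg (2.77%) or over the dose rank (3.29%), and none had an unadjusted p under 0.05 there, beside 3.3%, 21% and 19.7% of all genes. The F test of any difference among the 4 groups, with no fold limit, called none of the 9 and 6.78% of all genes, and gave an unadjusted p under 0.05 for Pcca and for 24% of all genes.

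A fit without the 3 µg/kg group, chosen after seeing the data, also called none of the 9 genes. Over the 15932 genes then tested, 0.916% were called at 10 µg/kg, 4.37% at 30 µg/kg, 2.97% between 30 and 10 µg/kg and 2.57% over the dose rank. An unadjusted p under 0.05 was found for Pcca and Mcee at 10 µg/kg (17.7% of all genes), for Pcca and Pccb at 30 µg/kg (23%), for Pccb and Hibch between 30 and 10 µg/kg (22.4%) and for Pcca over the dose rank (18.7%). Hibch differed between 30 and 10 µg/kg by -0.35 (SE 0.13, adjusted p = 0.156) and Pccb by -0.22 (SE 0.10, adjusted p = 0.223) on the log2 scale. The change of Pcca over the dose rank was 0.39 (SE 0.16, adjusted p = 0.210), beside 0.29 (SE 0.17, adjusted p = 0.366) with all 4 groups.

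By position, the TCDD libraries lay wholly above vehicle for Pcca at 3, 10 and 30 µg/kg, beside 8.58%, 11.9% and 14.2% of all genes. They lay wholly below for Acads at 3 µg/kg (6.84% of all genes), for none at 10 µg/kg (11%) and for Pccb, Acads and Hibch at 30 µg/kg (12.5%). These positions were the same under median-of-ratios and upper-quartile scaling. The median log2 change of the 9 genes was 0.082, 0.12 and 0.011 at the 3 doses, beside 0.0017, -0.0096 and -0.016 over all genes. The 95% interval lay within 1.5-fold in both directions for 6 of the 9 at each dose. At 10 and at 30 µg/kg all 9 intervals lay above a 1.5-fold fall, and those of Pcca, Mcee and Clybl still held a 1.5-fold rise.

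**Figure D4:**
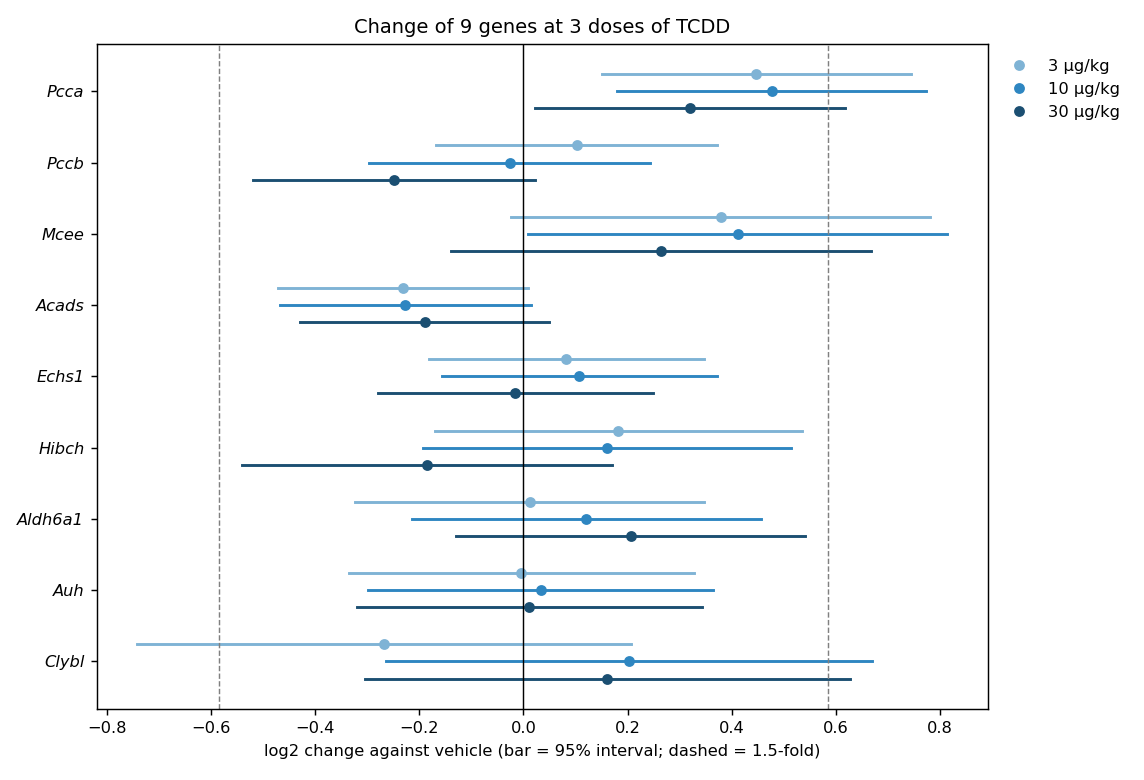
Log2 change of the 9 genes tested at 3, 10 and 30 µg/kg against vehicle, with 95% intervals and dashed lines at 1.5-fold. The unadjusted intervals of Pcca lie above 0 at each dose, around changes of 0.45, 0.48 and 0.32, and no gene was called.

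The other genes of the same pathways gave few calls. Of 19 genes for further steps of branched-chain breakdown, such as the transaminases, the branched-chain ketoacid dehydrogenase and methylcrotonyl-CoA carboxylase, 18 were tested and none was called at any dose or over dose rank. Of the 8 genes around the mutase step, including Mut itself, the cobalamin handling genes and the succinyl-CoA ligase subunits, only Mmab, which attaches the adenosyl group to cobalamin for the mutase, was called. Its log2 change was 0.37 (SE 0.18) at 3 µg/kg and 0.65 (SE 0.18) at 10 µg/kg, neither called, and it rose by 0.83 (SE 0.18, adjusted p = 0.0170) at 30 µg/kg. Mut was at 0.044, 0.17 and 0.13 (SE 0.081 each). Of 11 genes for biotin attachment and propionyl-CoA supply 10 were tested and none was called; Acod1, which makes itaconate, had too few counts. None of 10 fatty acid β-oxidation genes and none of 8 reference genes of mitochondria, such as citrate synthase, was called. Their median log2 changes at 30 µg/kg were 0.12 for the branched-chain steps, 0.16 for the mutase step, -0.14 for biotin and supply, 0.12 for β-oxidation and 0.098 for the mitochondrial reference genes.

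A clock score, the mean standardised level of 8 clock-controlled genes such as Dbp and Per3 minus that of 4 others such as Arntl, ran from -2.30 to 2.16 over the libraries, and every group held libraries of both signs. Its association with the genes was tested, after the data had been seen, in a fit with dose group as a term. Auh differed by -0.089 (SE 0.021) on the log2 scale per unit of score (adjusted p = 0.0144, edgeR). The libraries with a negative score held 20.9 to 24.9 CPM of Auh and those with a positive score 17.6 to 19.6. How many of all genes separate in this way was not counted. Pccb differed by 0.066 (SE 0.018) per unit (adjusted p = 0.0321). Aldh6a1 (0.073, SE 0.026, adjusted p = 0.0920) and Echs1 (0.050, SE 0.021, adjusted p = 0.167) did not pass. The 2 genes called stand beside 10.4% of all genes. Both calls rest on few libraries: without the first vehicle library neither passed, with adjusted p of 0.122 for Auh and 0.113 for Pccb, and Auh passed without each of the others in turn. Pccb also lost its call without the third vehicle library, without each 3 µg/kg library and without the first or second 10 µg/kg library. With the score as a covariate Pccb passed the F test over the 4 groups (adjusted p = 0.0266), as did 13% of all genes, so that 1 of 9 is close to the share over all genes, and no gene of the 9 was called at any single dose. The study's methods place tissue collection in the first hours of the light phase, and the hour of each library is not in the labels. What sets the score was not tested.

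**Figure D5:**
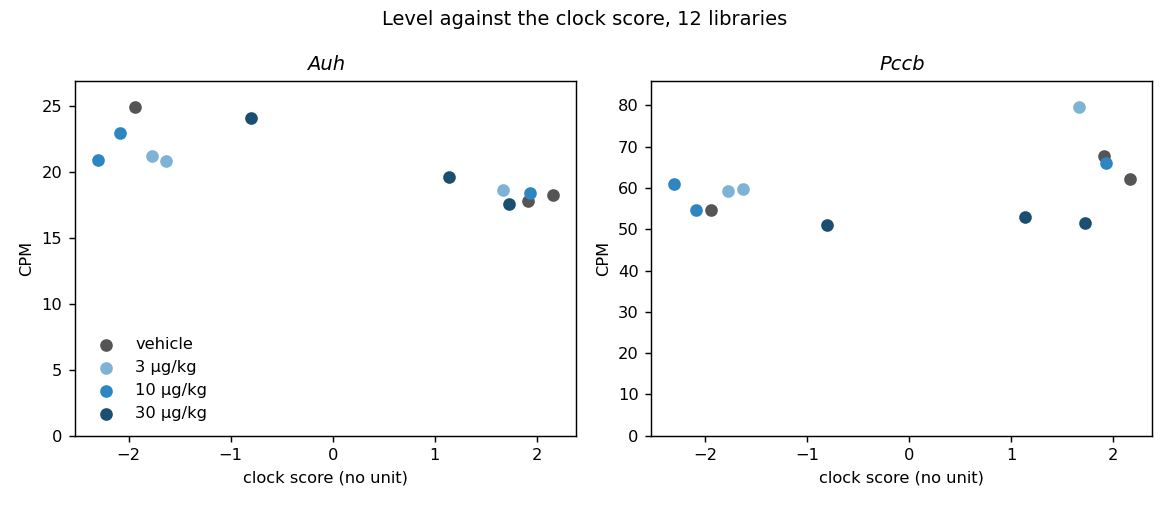
CPM of Auh and of Pccb against the clock score (no unit), 1 point per library, shaded by dose. Auh lies at 20.9 to 24.9 CPM at negative scores and at 17.6 to 19.6 at positive ones, and how many of all genes separate in this way was not counted.

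Across the 12 libraries the genes did not vary as a block. The strongest positive pairwise Pearson correlations of log2 CPM were 0.744 between Pcca and Mcee and 0.649 between Pccb and Echs1, and the strongest negative ones were -0.707 between Hibch and Aldh6a1 and -0.640 between Echs1 and Auh. The carboxylase subunits Pcca and Pccb had r = -0.0514. The genes most like the mean standardised level of the 9, of 11187 with a mean count of at least 50, were Acadsb (r = 0.890), a dehydrogenase of isoleucine breakdown, Pebp1 (0.887), Cmas (0.876), Nadk2 (0.858), which makes NADP in mitochondria, and Fh1 (0.858), the fumarase. All these points share library, depth and dose group, and the values are descriptions over 12 libraries.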

How the data were processed

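RNA of proximal ileal epithelium scrapings was sequenced in 12 libraries, 3 for each of 4 dose groups taken from the labels. Each deposited file gives the unnormalised read count of every Ensembl gene in 1 library. The submitters' processing notes name FastQC 0.11.3, Trimmomatic 0.33, TopHat2 2.1.0, SAMtools 1.2.0, HTSeq 0.6.1 and DESeq, and the build GRCm38. The annotation release and strand setting are not given in the sources used here. Of all counts in a file, 25.0% to 30.1% were outside genes and 31.4% to 38.8% were alignments that were not unique. The authors counted both in separate entries, and both were left out here. These shares differed at 30 µg/kg, where the first was 25.0% to 25.4% and the second 36.3% to 38.8%.

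Symbols, positions and lengths came from GENCODE M21, which matched 45229 of 46078 identifiers. Genes were filtered with filterByExpr, scaled by TMM (the trimmed mean of log ratios) and fitted in edgeR 4.0.16 (R 4.3.3) with 1 quasi-likelihood model of 4 groups. Benjamini-Hochberg adjustment ran over the 15823 genes tested. CPM, computed from the deposited counts, are relative to the TMM-scaled total of those genes, and a count of 3 equals 0.139 to 0.267 CPM. The dose-rank slope is given over the whole range, rank 0 to 3. Replicates were numbered in accession order. Nothing in the labels says whether they are separate animals, while the study gives n = 3 mice for its intestinal expression data. The p-values measure the spread between these libraries. Intervals cover that spread, and floors cover counting error only. No 2 libraries were identical.

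The rule named all 10 genes chosen, the genes of other lists that were called, and the 5 genes most like the 9 tested over the libraries. Called cell type markers are mostly given as counts. Genes named outside the rule are examples of list members, genes that overlap one of the 10, and markers that check the samples. Genes and lists were chosen with earlier results of these data known. Alternatives were other scalings, filters and tests (DESeq2 1.42.0, limma-voom 3.58.1), fits of only the groups compared, library index or clock score as a term, removal of length and GC trends, and each library left out. The model code was tested on simulated data.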

Additional observations from a re-analysis of the deposited data

How the results depend on the processing

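None of the 9 genes was called at any dose or between doses under 10 other settings, over dose rank under 9, or without each of 12 libraries in turn, where the number called was 0 in every fit. With the 3 µg/kg group left out, an alternative chosen after seeing the data, the number called at 10 and 30 µg/kg and over dose rank was also 0. The F test over the 4 groups called 0 without each library in turn, and 1 gene, Pccb, once the clock score was a covariate, when 13% of all genes were called. The association with the clock score, also chosen after seeing the data, called 2 genes, and 1 gene (Auh) with length and GC trends removed or with library index as a factor, and between 0 and 2 without each library in turn.

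Of 351 log2 changes recomputed under other settings, 335 kept their direction and 16 reversed, and none of the 351 was called. With the clock score in the fit, Pccb at 10 µg/kg was 0.077, Auh at 10 µg/kg -0.096 and the dose-rank change of Echs1 0.0038. With length and GC trends removed, Pccb at 10 µg/kg was 0.0029, Echs1 at 30 µg/kg 0.035 and over dose rank 0.047, Aldh6a1 at 3 µg/kg -0.044 and Auh at 3 µg/kg 0.036. With limma-voom, Echs1 over dose rank was 0.0066, Aldh6a1 at 3 µg/kg -0.022 and Auh at 3 µg/kg 0.022. Upper-quartile scaling gave -0.020 for Aldh6a1 at 3 µg/kg and -0.0073 for Auh at 30 µg/kg. With no filter on low counts Echs1 over dose rank was 0.00080 and Aldh6a1 at 3 µg/kg -0.0040, and with at least 10 counts in every library Aldh6a1 at 3 µg/kg was -0.021. Without the 3 µg/kg group, Echs1 over dose rank was 0.024. The cause of these reversals was not tested.

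Without each library in turn, 29 of 432 values reversed, all in Pccb, Echs1, Aldh6a1 and Auh. Pccb ran from -0.055 to 0.18 at 3 µg/kg and from -0.094 to 0.054 at 10 µg/kg. Echs1 ran from -0.039 to 0.18 at 3 µg/kg, from -0.12 to 0.11 at 30 µg/kg and from -0.092 to 0.081 over dose rank. Aldh6a1 ran from -0.18 to 0.11 at 3 µg/kg. Auh ran from -0.11 to 0.16 at 3 µg/kg, from -0.049 to 0.21 at 10 µg/kg, from -0.13 to 0.19 at 30 µg/kg and from -0.081 to 0.17 over dose rank. The lowest adjusted p of Pcca was 0.0681, at 10 µg/kg without the first 3 µg/kg library.

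Counts of calls over all genes moved more. Over the other settings and the fits with 1 library left out, they ran from 6 to 162 at 3 µg/kg (36 with all libraries, 162 without the first 3 µg/kg library), from 45 to 262 at 10 µg/kg, from 433 to 866 at 30 µg/kg, from 9 to 43 between 10 and 3 µg/kg, from 188 to 601 between 30 and 10 µg/kg, from 297 to 722 over dose rank and from 562 to 2054 for any difference. No paired analysis was possible because the labels give no replicate numbers, and the library index, run as a factor, is not one. Depth limits Adhfe1, Mcee and Clybl most, with as few as 3, 58 and 33 counts in a library.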
